A study of Mus musculus with 12 samples.

Results

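The comparison set bone-marrow-derived macrophages of the double knockout, labelled Cbl-/- and Cbl-b-/- together (DKO), against macrophages of the single knockout Cbl-/-, with 3 libraries in each group. It thus holds 6 of the 12 libraries of a study that also measured wild type (WT) and Cbl-b-/- macrophages, again 3 libraries each. The Cbl-/- label is shared by both groups, so the comparison asks what differs when the loss of Cbl-b is added to that of Cbl. All cells were grown from mouse marrow in medium with serum and supernatant of L cells, which supplies CSF-1, up to day 9, and the adherent cells were lysed for RNA. The labels do not say how or in which cells the genes were disrupted, from which strain, age or number of animals the marrow came, or whether replicates were separate cultures. They mention pooling at equal concentration without saying what was pooled, so p-values reflect the scatter among these libraries alone, and that scatter may be technical. Reads were counted per gene, and 12671 of the 15555 genes in the table passed the filter on low counts and were tested.

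Cbl and Cbl-b are related RING-type ubiquitin ligases. They bind tyrosine kinases that have been activated, attach ubiquitin to them and so send receptors such as the CSF-1 receptor to the lysosome. Both are made in macrophages, which need CSF-1 to survive, divide and keep their identity, and Cbl-b is best known as a brake on activation in lymphocytes.

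Depth was ample in all libraries, with 21048103 to 43946503 counts each. Levels are given as CPM, counts scaled to library size with TMM factors, and compared within a gene only, since they are not corrected for length. The DKO libraries spread more than the Cbl-/- libraries, with a biological coefficient of variation of 11.9% against 4.25%. DKO 3 stood apart from DKO 1 and 2: the chi-square per degree of freedom was 44.7 and 55.3 for its pairs and 10.2 for DKO 1 with DKO 2, against 3.93 to 12.3 within the other genotypes. On the first principal component (37.9% of the variance) the DKO libraries lay at 43.6 to 48.9 and the other 9 libraries at -4.75 or lower. Cbl-b-/- 3 stood apart from Cbl-b-/- 1 and 2 there (-36.6 against -15.3 and -17.9) and on the third component (-39.5 against 13.2 and 10.9). As a check of cell type, Lyz2, Cd68, Csf1r and Adgre1 were abundant in all 6 libraries, with Lyz2 at 12102, 13100.4 and 11915 CPM in Cbl-/- and 12419, 14048 and 15768 CPM in DKO. In bulk RNA, fewer cells of a type and less RNA per cell cannot be told apart.

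Cbl, the gene missing in both groups, was measured first. Its counts came to 141, 143 and 136 CPM in WT, 143, 137 and 138 CPM in Cbl-b-/-, 53.96, 51.2 and 49.3 CPM in Cbl-/- and 40.97, 36.8 and 35.01 CPM in DKO. Both groups were therefore below WT, and all 3 DKO libraries were below all 3 Cbl-/- libraries (log2 fold change of DKO over Cbl-/- -0.45, SE 0.06, adjusted p = 5.1e-05). Cblb, the gene that should set the groups apart, was at 67.9, 68.2 and 69.2 CPM in Cbl-/- and 73.4, 67.98 and 73.7 CPM in DKO, with WT at 62.2, 55.5 and 60.6 and Cbl-b-/- at 54.5, 54.4 and 49.4 CPM. The groups overlapped and the difference did not pass (0.07, SE 0.06, adjusted p = 0.46). A disruption that spares the transcript would not be visible in counts of the whole gene. Each direction below therefore rests on the labels, and DKO and Cbl-b-/- stand for the libraries labelled so. The Cbl-like gene Cbll1, tested on the same list, was at 27.9, 26.2 and 27.9 CPM and 25.2, 22.4 and 25.9 CPM. It did not pass (-0.16, SE 0.08, adjusted p = 0.14), although with total-count scaling it did (log2 fold change -0.25, adjusted p = 0.020).

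DKO and Cbl-/- macrophages differed in 3747 of 12671 genes (29.6%) at an adjusted p under 0.05 (edgeR, quasi-likelihood F test, Benjamini-Hochberg adjustment). Of these, 2027 (16%) were higher in DKO and 1720 (13.6%) lower. Most differences were small: the median log2 fold change was 0.39 among the higher genes, -0.38 among the lower and 0.01 over all genes tested. At least a 2-fold change was seen in 622 genes (4.91%), 415 higher (3.28%) and 207 lower (1.63%). Scaling by total counts in place of TMM moved the split to 1362 higher and 2747 lower, with a median of -0.08 over all genes, so the balance of rises and falls depends on the scaling. The counts ranged from 2855 without Cbl-/- 1 to 4332 without DKO 3.

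**Figure D1:**
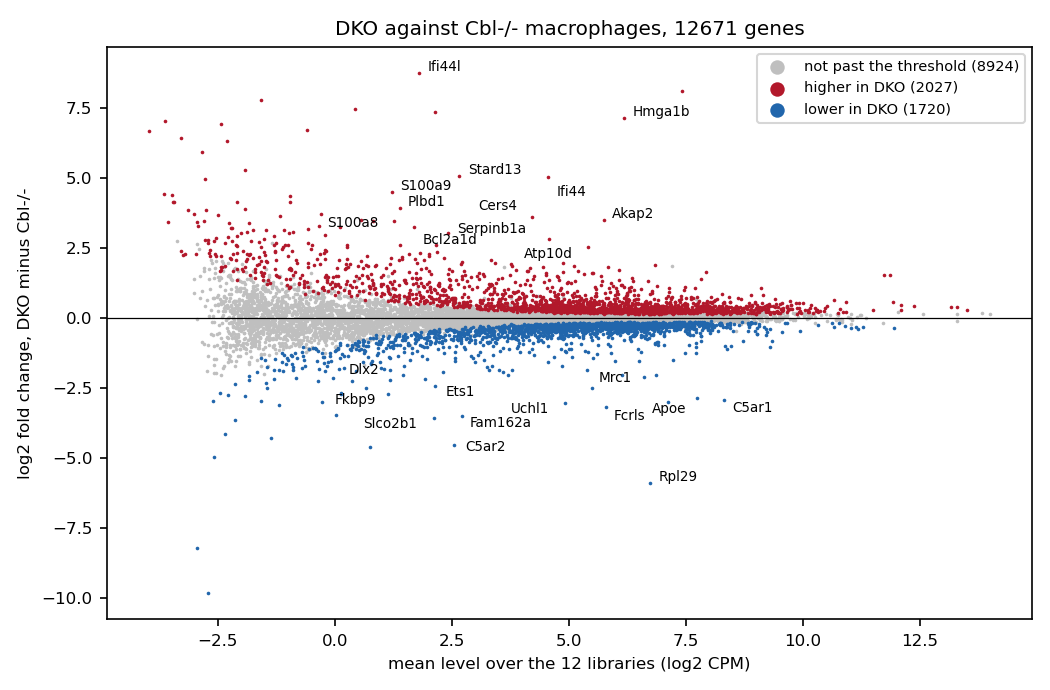
Log2 fold change of DKO over Cbl-/- (vertical axis) against mean log2 CPM over the 12 libraries (horizontal axis), 1 point for each of the 12671 genes tested, with genes past the threshold coloured by direction and some named. The 415 rises of at least 2-fold reach 8.74 at Ifi44l and, among the genes named, the 207 falls reach -5.90 at Rpl29, with 2 genes of low mean level below it, while most called genes lie within 1 log2 unit of 0.

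The largest changes were ranked among called genes with a mean log2 CPM of at least 1 and a symbol that is not a model name. Only genes whose groups did not overlap were ranked, which held for 42.7% of all genes tested. The 12 largest rises held interferon-induced genes and neutrophil genes, and several of the others were low in Cbl-/- alone. Ifi44l, an interferon-induced gene (ENSMUSG00000039146, chromosome 3, 151758737 to 151762892), had 0.0651, 0.165 and 0 CPM in Cbl-/- and 27.8, 29.9 and 32.1 CPM in DKO (log2 fold change 8.74, SE 0.29, adjusted p = 2.2e-12), from 2, 4 and 0 counts in the Cbl-/- libraries. Its neighbour Ifi44 had 2.96, 3.02 and 4.76 CPM and 107, 106 and 144 CPM (log2 fold change 5.03, SE 0.19, adjusted p = 5.5e-10). WT lay between the groups for both, at 10.5, 8.88 and 13.1 CPM for Ifi44l and 35.5, 33.8 and 46.1 CPM for Ifi44. Stard13, for a lipid transfer domain protein, had 0.553, 0.165 and 0.364 CPM in Cbl-/- and 13.4, 12.6 and 11.6 CPM in DKO (log2 fold change 5.05, SE 0.19, adjusted p = 8.5e-12) against 20.9, 21.3 and 18.4 CPM in WT. Cers4, a ceramide synthase gene, had 2.11, 2.73 and 2.80 CPM, 31.8, 31.1 and 30.7 CPM and 40.6, 40.9 and 35.4 CPM in Cbl-/-, DKO and WT (DKO over Cbl-/- 3.61, SE 0.10, adjusted p = 2.3e-13). Atp10d, of the lipid flippase family but annotated as a polymorphic pseudogene, likewise had 5.30, 5.58 and 7.04 CPM, 43.1, 44.1 and 40.5 CPM and 33.7, 37.3 and 34.4 CPM (2.82, SE 0.10, adjusted p = 6.4e-12). For these 3 genes the Cbl-/- libraries were the lowest and DKO lay nearer to WT, though DKO over WT passed as well (-0.69, -0.32 and 0.28, adjusted p = 1.5e-04, 0.0038 and 0.021).

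Hmga1b, a copy of the gene for the chromatin protein HMGA1, followed the same pattern with 3.45, 1.40 and 1.49 CPM in Cbl-/-, 308, 349 and 234 CPM in DKO and 236, 217 and 274 CPM in WT (log2 fold change 7.12, SE 0.27, adjusted p = 9.2e-09). Hmga1 itself went the other way, from 408, 404 and 409 CPM in Cbl-/- to 221, 226 and 202 CPM in DKO (-0.91, SE 0.09, adjusted p = 1.1e-06), with WT at 154, 144 and 187 CPM. Reads of these near-identical copies may have been assigned to either, so both values are uncertain.

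S100a9, a subunit of the neutrophil protein calprotectin, had 1.37, 1.82 and 1.01 CPM in Cbl-/- and 26.9, 26.7 and 39.3 CPM in DKO (log2 fold change 4.50, SE 0.20, adjusted p = 1.1e-10). Its partner S100a8 had 1.79, 1.24 and 1.43 CPM and 13.6, 12.4 and 23.3 CPM (3.46, SE 0.24, adjusted p = 1.7e-08). WT was low like Cbl-/- for both (0.785, 0.616 and 0.75 CPM for S100a9), so that the DKO libraries stood alone at the top, DKO 3 highest. Serpinb1a, for an inhibitor of neutrophil serine proteases, had 5.01, 3.72 and 4.15 CPM and 34.9, 33.8 and 36.7 CPM (3.03, SE 0.17, adjusted p = 2.1e-09). Akap2, for an anchor of protein kinase A, had 17.2, 15.2 and 14.4 CPM and 180.1, 171 and 174 CPM (3.49, SE 0.13, adjusted p = 3.7e-11), and overlaps the gene Pakap, so its counts are uncertain. Plbd1, for a phospholipase B-like protein, rose by 3.91 (SE 0.20) and Bcl2a1d, of a family of near-identical survival genes and thus uncertain, by 3.24 (SE 0.28). That the groups do not overlap in these 6 genes follows from the rule by which they were chosen.

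Among genes with a mean log2 CPM of at least 1 the largest fall was that of Rpl29, a ribosomal protein gene (ENSMUSG00000048758, chromosome 9, 106429454 to 106431568), from 338, 348 and 329 CPM in Cbl-/- to 4.24, 6.14 and 6.60 CPM in DKO (log2 fold change -5.90, SE 0.12, adjusted p = 6.8e-15). WT had 319.9, 332 and 345 CPM and Cbl-b-/- 184, 220.2 and 204 CPM. Ribosomal protein genes have processed copies elsewhere in the genome, so the level is uncertain, but the DKO libraries alone were close to 0. Below that mean level Ccdc58, chosen after its values were seen, had 11.5, 11.03 and 12.7 CPM in Cbl-/- and 0.0279, 0 and 0 CPM in DKO, and was as low in WT (0.0476, 0 and 0 CPM). Both receptors for the complement fragment C5a fell. C5ar2 (chromosome 7, 16234585 to 16244154) went from 23.5, 24.2 and 26.3 CPM to 1.003, 0.859 and 1.31 CPM (log2 fold change -4.52, SE 0.14, adjusted p = 7.6e-13), and its neighbour C5ar1 from 708, 751 and 899 CPM to 101, 114 and 97.2 CPM (-2.92, SE 0.12, adjusted p = 3.4e-10). WT lay between, at 252, 297 and 207 CPM for C5ar1 and 2.69, 2.59 and 2.93 CPM for C5ar2, so that Cbl-/- was above WT and DKO below it for both genes.

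Uchl1, a deubiquitinating enzyme known from neurons, fell from 196, 198 and 207 CPM in Cbl-/- to 23.4, 26.7 and 23.7 CPM in DKO (log2 fold change -3.03, SE 0.08, adjusted p = 8.2e-14) against 13.4, 12.9 and 16.01 CPM in WT. The antisense gene Uchl1os overlaps it, and no source used here says whether counting was by strand. Fam162a (-3.51), the endoplasmic reticulum isomerase gene Fkbp9 (-2.70) and the transcription factor gene Ets1 (-2.43) were likewise high in Cbl-/- and nearer to WT in DKO. Fam162a had 27.97, 32.1 and 25.5 CPM in Cbl-/-, 2.42, 2.07 and 2.96 CPM in DKO and 4.66, 5.23 and 6.40 CPM in WT. By contrast the organic anion transporter gene Slco2b1, at 5.82, 4.05 and 6.05 CPM in Cbl-/- and 0.641, 0.318 and 0.388 CPM in DKO (-3.56, SE 0.24, adjusted p = 1.8e-08), and the homeobox gene Dlx2, at 3.06, 3.35 and 4.09 CPM and 0.446, 1.34 and 0.533 CPM (-2.22, SE 0.31, adjusted p = 5.5e-05), were lowest in DKO, below WT as well (13.9, 13.4 and 11.2 and 3.07, 3.16 and 3.29 CPM). That the groups do not overlap in these genes follows from the rule by which they were chosen. Apoe, Fcrls and Mrc1 complete the 12 and are described with the macrophage genes.

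**Figure D2:**
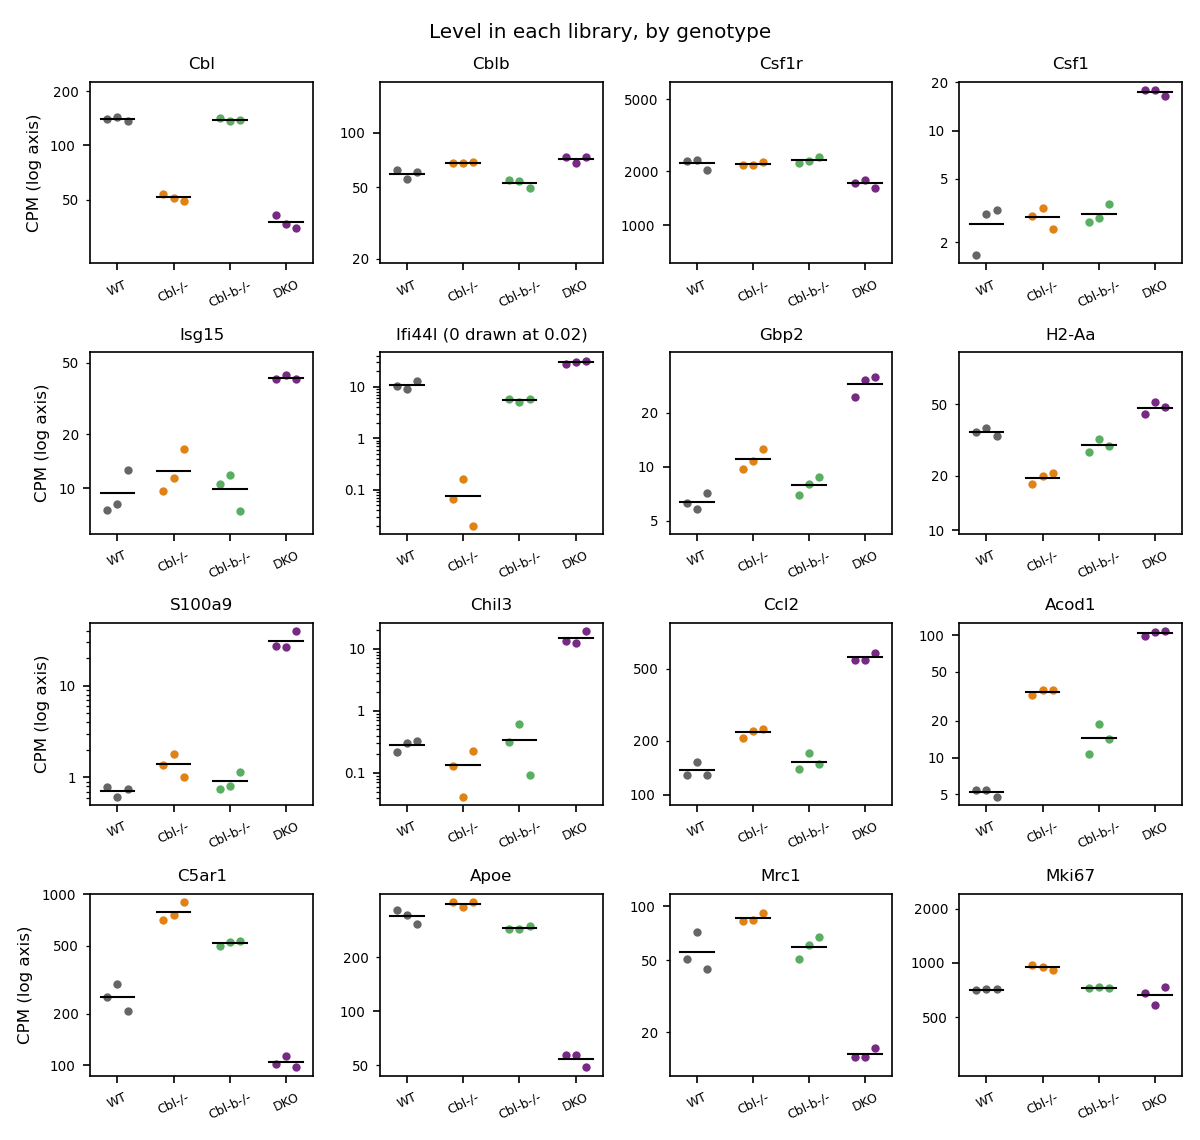
CPM on a log axis for 16 genes in each of the 12 libraries, 1 point for each library, coloured by genotype, with 0 drawn at 0.02 CPM. S100a9 and Chil3 are high in DKO alone, C5ar1 is highest in Cbl-/- and lowest in DKO, and Ifi44l is lowest in Cbl-/- and highest in DKO.

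Listed genes that type I interferon induces to block viruses rose as a group. This list, like the others, was chosen with earlier results of these data known, so its counts are a description only. Ch25h, an interferon-induced gene outside the list, fell (below). All 40 genes of the antiviral list passed the filter and all 40 were higher in DKO, with a median log2 fold change of 0.96 (range 0.50 to 8.74), beside 16% higher and a median of 0.01 over all genes tested. In all 40 the 3 DKO libraries were above the 3 Cbl-/- libraries, beside 42.7% of all genes whose groups did not overlap in either direction. The count was 40 of 40 under each alternative run. Isg15, a ubiquitin-like modifier, had 9.73, 11.4 and 16.6 CPM in Cbl-/- and 40.3, 42.5 and 40.6 CPM in DKO (log2 fold change 1.70, SE 0.21, adjusted p = 6.4e-05). Usp18, the protease that removes ISG15, had 15.1, 14.9 and 21.2 CPM and 41.1, 45.3 and 49.2 CPM (1.40, SE 0.15, adjusted p = 5.3e-06). Ifit1, a sensor of viral RNA, had 22.2, 25.1 and 37.6 CPM and 84.5, 87.7 and 132 CPM (1.83, SE 0.27, adjusted p = 6.3e-04). Cbl-/- 3 was the highest Cbl-/- library for these genes, and for 35 of the 40, and still lay below every DKO library. Bst2 (tetherin), which holds budding virus at the cell surface, had 60.2, 70.2 and 66.7 CPM and 114, 124 and 103 CPM (0.79, SE 0.07, adjusted p = 5.6e-07). Slfn5, a Schlafen family member, had 57.1, 60.4 and 72.01 CPM and 174, 161 and 172 CPM (1.42, SE 0.10, adjusted p = 6.9e-08). WT had 61.9, 56.7 and 74.1 CPM for Slfn5 and 7.57, 8.16 and 12.7 CPM for Isg15, near the Cbl-/- level.

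**Figure D3:**
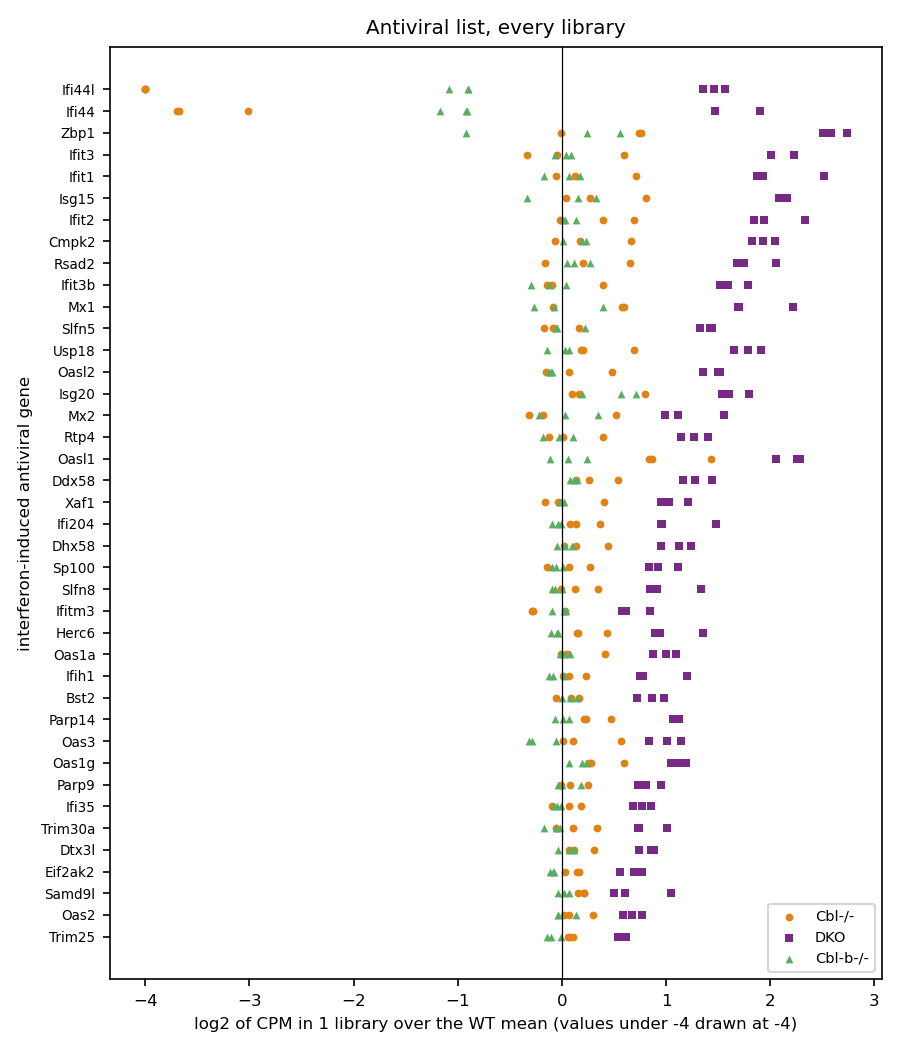
The 40 genes of the antiviral list, 1 line for each, with log2 of CPM over the WT mean on the horizontal axis, clipped at -4, and 1 point for each library of Cbl-/-, DKO and Cbl-b-/-. The DKO points lie to the right of the Cbl-/- points in all 40 genes, and Cbl-/- 3 is the rightmost Cbl-/- library in 35.

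Many promoters of these genes hold the letters that interferon-activated factors are known to bind. The interferon-stimulated response element was searched as GAAA, any 2 bases, then GAAA, on both strands in RefSeq promoters of GRCm38.p6, 250 bases before to 50 after the start, which were on hand for 9795 of the genes tested. It was in 3.93% of all these promoters, 7.44% of those of the 1573 higher genes with a promoter, 3.39% of the 1355 lower genes and 10.5% of the 285 genes at least 2-fold higher. Of the 30 antiviral genes with a promoter 16 held it (53.3%), and of 9 GTPase genes described next 8 did (88.9%). The ribosomal protein genes described later held it in 7 of 59 promoters (11.9%). The STAT motif, searched as TTCNNNGAA, was in 8.19% of all promoters, 8.07% of the higher and 7.38% of the lower genes. It was in 7 of 30 antiviral genes (23.3%) and in 5 of the 9 GTPase genes (55.6%). The NF-kB motif, searched as GGGA, any base, then TTTCC, was in 0.541%, 0.636% and 0.369%, and in 0 of the 30 antiviral and 1 of the 9 GTPase genes. A match describes these letters and does not show a bound site. The 6 stretches of 60 bases below, 5′ to 3′ on the strand of the gene, are shown because they carry the motif in genes whose values are given here. Capitals mark the response element or its reverse complement, overlapping matches included.
Ifit1: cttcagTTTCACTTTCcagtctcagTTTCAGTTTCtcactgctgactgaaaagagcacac
Isg15: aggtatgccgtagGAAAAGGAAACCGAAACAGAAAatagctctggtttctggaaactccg
Bst2: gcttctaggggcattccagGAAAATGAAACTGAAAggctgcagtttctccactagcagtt
Gbp2: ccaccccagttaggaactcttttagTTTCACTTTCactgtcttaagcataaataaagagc
Gbp3: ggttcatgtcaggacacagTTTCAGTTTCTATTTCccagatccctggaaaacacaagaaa
Irgm1: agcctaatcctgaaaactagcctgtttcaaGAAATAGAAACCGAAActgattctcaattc
They lie at chr19:34640779-34640838 (plus strand), chr4:156200850-156200909 (minus), chr8:71537562-71537621 (minus), chr3:142620579-142620638 (plus), chr3:142559980-142560039 (plus) and chr11:48871421-48871480 (minus). The match nearest to the start begins 85, 66 and 124 bases before the start of transcription in Ifit1, Isg15 and Bst2, and 59, 39 and 24 bases before it in Gbp2, Gbp3 and Irgm1. Isg15 holds 3 overlapping matches, and Ifit1, Bst2, Gbp3 and Irgm1 hold 2 each.

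Guanylate-binding proteins and immunity-related GTPases, which interferon gamma and type I interferon induce to attack vacuoles that hold microbes, were all higher in DKO. Of 18 listed genes 14 were tested and 14 rose, beside 16% of all genes, with a median of 1.10, while 2 had no row and 2 were removed as too low. Gbp2 had 9.76, 10.7 and 12.6 CPM in Cbl-/- and 24.4, 30.4 and 31.4 CPM in DKO (log2 fold change 1.38, SE 0.12, adjusted p = 3.5e-07). Gbp3 had 5.98, 5.74 and 7.23 CPM and 14.6, 14.3 and 18.5 CPM (1.32, SE 0.14, adjusted p = 2.1e-06). Irgm1, a regulator of the family, had 51.9, 52.5 and 67.7 CPM and 104, 108 and 119 CPM (0.94, SE 0.10, adjusted p = 4.9e-06). Both Gbp2 and Irgm1 carry the motif close to their start (above), and Cbl-/- 3 was again the highest Cbl-/- library in 12 of the 14 genes. Members share much sequence, so reads may be split between them. A filter of 5 CPM left 9 of the 14 under test, all of them higher.

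Among the 25 tested of 26 listed genes of interferon signalling itself, 8 rose and 3 fell (1 without Cbl-/- 3), beside 16% higher and 13.6% lower of all genes. The median was 0.03 beside 0.01 over all genes. The rises included the signal transducer Stat2 and the factors Irf7 and Irf9. Stat2 had 71.6, 80.4 and 85.8 CPM in Cbl-/- and 141, 136 and 139 CPM in DKO (log2 fold change 0.81, SE 0.07, adjusted p = 2.8e-07). Irf7, the factor that amplifies interferon genes, had 29.8, 37.2 and 49.8 CPM and 116, 129 and 106 CPM (1.58, SE 0.18, adjusted p = 5.5e-05). The groups did not overlap in any of the 3, and Irf9 rose by 0.50 (SE 0.07). Ifnb1, for interferon beta, was removed by the filter, with at most 0.0954 CPM in any of the 12 libraries. Socs3, a feedback inhibitor, was at 18.1, 18.5 and 19.5 CPM and 20.3, 24.5 and 18.7 CPM and did not pass (0.17, SE 0.10, adjusted p = 0.22), though it did without DKO 3 (0.26, adjusted p = 0.048).

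Most class I antigen presentation genes and 6 of the class II genes were higher. Of 20 tested genes of MHC class I presentation and the immunoproteasome, 17 rose, beside 16% of all genes, 0 fell and 3 did not pass (median 0.43). Nlrc5, the transactivator of class I genes, had 40.5, 39.6 and 42.4 CPM in Cbl-/- and 72.96, 70.3 and 65.98 CPM in DKO (log2 fold change 0.77, SE 0.08, adjusted p = 1.8e-06), and H2-T23, a non-classical class I gene, had 42.5, 42.6 and 45.9 CPM and 74.4, 78.1 and 64.2 CPM (0.72, SE 0.08, adjusted p = 2.8e-06). Psme2, of the proteasome activator, rose by 0.61 (SE 0.07) and H2-T22 by 0.72 (SE 0.07). Class I genes are near-identical in parts, so the values of single members are uncertain.

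In the class II list, 6 of 14 tested genes (15 listed) rose, beside 16% of all genes, 0 fell and 8 did not pass (median 0.61). By limma voom with quality weights 1 fell. H2-Aa, the alpha chain of I-A, had 17.99, 19.997 and 20.7 CPM in Cbl-/- and 44.4, 51.3 and 48.2 CPM in DKO (log2 fold change 1.29, SE 0.08, adjusted p = 8.7e-09). H2-Eb1 had 10.2, 11.8 and 10.9 CPM and 28.04, 35.4 and 29.6 CPM (1.50, SE 0.10, adjusted p = 8.3e-09), and H2-Ab1 rose by 1.35 (SE 0.09). Cd74, the invariant chain that guides class II molecules, had 96.9, 102 and 100.4 CPM and 195, 226 and 206 CPM (1.06, SE 0.06, adjusted p = 1.4e-09). WT had 154, 156 and 151 CPM for Cd74 and 35.1 ± 1.9 CPM (SD, n = 3) for H2-Aa, so the Cbl-/- libraries were below WT and the DKO libraries above it. Of 2 B cell markers tested Ighm rose as well, from 5.85, 4.79 and 5.27 to 14.5, 16.1 and 14.6 CPM, and dendritic cell markers summed to 1.85 to 1.98 CPM in Cbl-/- and 3.25 to 3.76 CPM in DKO. The part of either in the class II difference was not tested.

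Chemokine ligands were mostly higher, while the classical cytokines Tnf and Il1b were not. Of 21 chemokine genes listed 17 were tested, of which 11 rose, 3 fell and 3 did not pass (median 0.91), beside 16% higher and 13.6% lower of all genes. Ccl2, which draws monocytes, had 206, 227 and 232 CPM in Cbl-/- and 559, 562 and 614 CPM in DKO (log2 fold change 1.38, SE 0.08, adjusted p = 3.6e-09), and its relative Ccl7 had 35.4, 39.8 and 40.1 CPM and 189, 214 and 261 CPM (2.53, SE 0.16, adjusted p = 1.8e-07). The falls included the constitutively made chemokine gene Cxcl14, which went from 45.2, 46.1 and 43.9 CPM to 16.2, 18.04 and 15.5 CPM (-1.44, SE 0.07, adjusted p = 1.6e-10) and the platelet factor gene Pf4 from 69.3, 73.3 and 79.6 CPM to 28.7, 32.8 and 31.5 CPM (-1.26, SE 0.09, adjusted p = 2.4e-08). For Ccl2 and Ccl7 the DKO libraries were the highest of the 12, and for Cxcl14 the lowest.

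Of 25 inflammatory cytokine and mediator genes listed 19 were tested, of which 8 rose, 3 fell and 8 did not pass (median 0.21), beside 16% higher and 13.6% lower of all genes. Acod1, which makes the antimicrobial metabolite itaconate, had 32.1, 35.8 and 35.3 CPM in Cbl-/- and 97.3, 105 and 107 CPM in DKO (log2 fold change 1.59, SE 0.13, adjusted p = 2.4e-07), against 5.42, 5.47 and 4.79 CPM in WT. Il1rn, the antagonist of interleukin 1, had 13.9, 15.04 and 15.8 CPM and 33.7, 35.4 and 39.4 CPM (1.28, SE 0.10, adjusted p = 6.9e-08). Tnf was at 92.6, 93.99 and 94.8 CPM and 89.9, 91.4 and 79.6 CPM (-0.11, SE 0.08, adjusted p = 0.31), and Il1b stayed under 1 CPM in all 6 libraries (-0.41, SE 0.45, adjusted p = 0.54). Both costimulatory genes among the most significant went down. Cd40, the receptor that T cells engage, fell from 6.47, 6.28 and 6.87 CPM to 1.78, 1.88 and 1.84 CPM (-1.83, SE 0.18, adjusted p = 1.1e-06), and Tnfsf9 (4-1BB ligand) from 25.7, 27.6 and 27.5 CPM to 12.9, 14.3 and 12.9 CPM (-1.01, SE 0.08, adjusted p = 2.1e-07). Neither overlapped, and Cd40 in DKO was nearer to the 1.21, 0.821 and 1.18 CPM of WT.

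Of 18 tested NF-kB subunit and inhibitor genes 6 were called, a share near the 29.6% of all genes, with 4 higher and 2 lower (4 lower with total-count scaling, 1 without any of the Cbl-/- libraries, DKO 1, DKO 2 or WT 1 in turn, and 1 in the fit of the compared genotypes alone). The median was 0.05. Traf1, an NF-kB-induced adaptor, had 13.01, 13.6 and 14.1 CPM in Cbl-/- and 27.2, 29.04 and 23.3 CPM in DKO (log2 fold change 0.97, SE 0.15, adjusted p = 1.2e-04). Tnfaip3 (A20), an inhibitor of the pathway, rose by 0.40 (SE 0.09) and the kinase gene Ikbke by 0.32 (SE 0.07), while Nfkbiz, for an atypical nuclear member, fell by 0.65 (SE 0.12) on the log2 scale.

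Of 40 tested genes (44 listed) of tyrosine kinases, ligands and adaptors that Cbl proteins bind or regulate 15 were called, beside 29.6% of all genes, with 9 higher (16% of all genes) and 6 lower (13.6%). The list had a median of 0.05, and the lower count was 14 with total-count scaling and 10 by limma voom with quality weights. The ligand Csf1 rose the most, from 2.93, 3.31 and 2.41 CPM in Cbl-/- to 17.98, 17.9 and 16.5 CPM in DKO (log2 fold change 2.61, SE 0.19, adjusted p = 2.9e-08), with WT at 1.67, 3.03 and 3.18 CPM. Its receptor Csf1r fell, from 2175, 2164 and 2239.6 CPM to 1728, 1789 and 1611 CPM (-0.36, SE 0.06, adjusted p = 2.2e-04). Neither overlapped, so the DKO libraries held more transcript of the growth factor and less of its receptor. Met, the receptor of hepatocyte growth factor, had 8.33, 9.96 and 8.58 CPM and 20.7, 17.7 and 23.1 CPM (1.20, SE 0.13, adjusted p = 2.9e-06), and the Src-family kinase gene Fgr had 29.2, 28.4 and 28.9 CPM and 45.2, 53.9 and 50.4 CPM (0.79, SE 0.09, adjusted p = 8.1e-06). Igf1r, the receptor of insulin-like growth factor 1, fell from 10.6, 10.5 and 10.99 CPM to 5.82, 5.79 and 5.02 CPM (-0.95, SE 0.14, adjusted p = 6.6e-05).

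Downstream of these receptors, feedback and immediate early genes of the ERK pathway were split. Of 28 listed genes 27 were tested, of which 4 rose, 8 fell and 15 did not pass (median -0.02), beside 16% higher and 13.6% lower of all genes. The higher genes were 2 without Cbl-/- 1, Cbl-/- 2 or DKO 1, and the lower genes 4 without Cbl-/- 1 and 5 without DKO 3. Dusp6, the phosphatase that switches ERK off, fell from 112, 119 and 135 CPM to 62.4, 59.7 and 64.7 CPM (log2 fold change -0.97, SE 0.09, adjusted p = 1.4e-06), and the ETS factor gene Etv5 from 128, 127 and 141 CPM to 73.4, 76.9 and 66.7 CPM (-0.87, SE 0.07, adjusted p = 6.8e-08). Both are known targets of ERK signalling. Jun fell by 0.36 (SE 0.06) on the log2 scale. Atf3, a stress-induced factor, rose from 125, 121 and 121 CPM to 196, 196 and 192 CPM (0.67, SE 0.07, adjusted p = 1.2e-06).

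Of 28 tested genes of other ubiquitin ligases and deubiquitinases 8 were called, a share near the 29.6% of all genes: 6 rose and 2 fell (7 fell with total-count scaling and 4 by limma voom with quality weights), with a median of 0.03. Nedd4, a ligase of the HECT type that also acts on membrane receptors, had 0.683, 0.165 and 0.336 CPM in Cbl-/- and 5.71, 4.55 and 5.60 CPM in DKO (log2 fold change 3.70, SE 0.38, adjusted p = 2.3e-06), from 37 and 579 counts in all. WT was low as well, at 0.238, 0.231 and 0.679 CPM, so the DKO libraries stood alone. Mdm2, the ligase of p53, had 289, 288 and 274 CPM and 410.3, 398 and 459.6 CPM (0.57, SE 0.06, adjusted p = 2.0e-06).

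Genes of the macrophage identity list fell more often than they rose, though their summed level was higher in DKO. Of 27 tested 4 rose, 15 fell and 8 did not pass (median -0.34), beside 16% higher and 13.6% lower of all genes. Without DKO 3 or with quality weights 7 rose. The 27 genes summed to 27090 to 27681 CPM in Cbl-/- and 30533 to 36499 CPM in DKO, a sum in which abundant genes such as Lyz2 weigh most. Apoe, the lipid carrier, went from 408, 381 and 408 CPM in Cbl-/- to 57.1, 57.3 and 48.6 CPM in DKO (log2 fold change -2.88, SE 0.08, adjusted p = 1.7e-13). Fcrls, a scavenger receptor best known from microglia, went from 74.4, 71.4 and 77.4 CPM to 7.41, 7.63 and 9.43 CPM (-3.18, SE 0.14, adjusted p = 4.3e-10). Mrc1, the mannose receptor, went from 82.4, 83.5 and 92.1 CPM to 14.6, 14.6 and 16.3 CPM (-2.50, SE 0.16, adjusted p = 6.9e-08). In all 3 the DKO libraries were also below WT (367, 345 and 306 CPM for Apoe, 128, 142 and 95.1 for Fcrls and 50.99, 72.00 and 44.5 for Mrc1). The fractalkine receptor gene Cx3cr1 had 498, 492 and 508 CPM and 327, 324 and 359 CPM (-0.57, SE 0.06, adjusted p = 1.5e-06). Cd14, the co-receptor for lipopolysaccharide, rose from 178, 168 and 167 CPM to 279, 289 and 282 CPM (0.73, SE 0.07, adjusted p = 1.3e-06). Adgre1 (F4/80) went from 787, 769.9 and 808 CPM to 664, 688 and 737 CPM (-0.18, SE 0.06, adjusted p = 0.021), a call that was lost without Cbl-/- 1, Cbl-/- 3 or DKO 1 and in the fit of the compared genotypes alone (adjusted p = 0.060, 0.084, 0.086 and 0.068). Lyz2 (0.19, SE 0.08, adjusted p = 0.088) and Cd68 (0.08, SE 0.07, adjusted p = 0.44) did not pass; without DKO 1 Lyz2 did (0.27, adjusted p = 0.015) and without DKO 3 Cd68 did (0.15, adjusted p = 0.036).

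In the complement list, 13 of 14 genes were tested, 6 fell and 4 rose, with a median of -0.10, beside 13.6% lower and 16% higher of all genes. C1qa, a chain of the first component that macrophages make, went from 188, 187 and 205 CPM in Cbl-/- to 48.9, 53.2 and 40.1 CPM in DKO (log2 fold change -2.03, SE 0.12, adjusted p = 8.7e-09), and C1qb from 416, 411 and 431 CPM to 204, 222 and 195 CPM (-1.02, SE 0.07, adjusted p = 2.3e-08). With C5ar1 and C5ar2 these were the 4 most significant members, all of them lower. The complement gene C3, chosen after its values were seen, rose from 38.8, 44.2 and 43.1 CPM to 105, 107 and 102 CPM (1.32, adjusted p = 1.9e-06). Of 18 chemokine receptor and migration genes tested (19 listed), 6 were higher and 6 lower, beside 16% and 13.6% of all genes. The integrin gene Itgal (LFA-1 alpha chain) fell from 235, 236 and 234 CPM to 120.0, 128 and 115 CPM (-0.96, SE 0.08, adjusted p = 2.3e-07). Ccr2, the receptor of CCL2, was at 56.6, 58.01 and 63.2 CPM and 62.7, 65.02 and 91.8 CPM, where DKO 3 was the highest, and did not pass (0.31, SE 0.11, adjusted p = 0.051); it passed without DKO 1 (0.41, adjusted p = 0.011), without DKO 2 (0.38, adjusted p = 0.023), by DESeq2, with a 5 CPM filter and with the replicate block.

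Markers of monocytes, progenitors and neutrophils were higher in DKO from a low base. Of 14 monocyte and progenitor genes listed 11 were tested, of which 7 rose and Cd34 fell, beside 16% higher and 13.6% lower of all genes. Of 13 neutrophil genes listed 8 were tested, of which 6 rose and Mmp8 fell. The others had no row (2 and 4) or were removed as too low (1 and 1), and a gene near 0 in the other genotypes passed the filter only through DKO. Chil3 had 0.13, 0.0413 and 0.224 CPM in Cbl-/- and 13.3, 12.6 and 19.2 CPM in DKO, and the classical monocyte marker Ly6c2 had 0.0651, 0.661 and 0.224 CPM and 5.27, 6.62 and 6.23 CPM (log2 fold change 4.34, SE 0.45, adjusted p = 2.6e-06). Vcan, a matrix proteoglycan of classical monocytes, had 24.98, 29.6 and 28.4 CPM and 72.9, 66.6 and 86.6 CPM (1.45, SE 0.09, adjusted p = 8.7e-09). All DKO libraries were above all Cbl-/- libraries in these genes, beside 42.7% of all genes whose groups did not overlap in either direction. For a gene that passed the filter only through DKO, this follows largely from the filter. WT stayed low (0.143, 0.18 and 0 CPM for Ly6c2). Plac8, at 0.0976, 0 and 0 CPM and 4.07, 4.23 and 5.19 CPM, and the granule protease gene Prtn3, at 0, 0 and 0.0841 CPM and 1.59, 3.40 and 1.72 CPM, had 3 counts each over the Cbl-/- libraries, Ctsg 7 and Chil3 13. A filter of 5 CPM left 4 of the 7 risen monocyte genes under test.

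Of the neutrophil granule genes, Ngp had 1.46, 1.36 and 1.23 CPM in Cbl-/- and 14.8, 15.97 and 13.6 CPM in DKO (log2 fold change 3.45, SE 0.20, adjusted p = 2.6e-09), Ltf (lactoferrin) 1.14, 0.785 and 0.673 CPM and 9.98, 8.94 and 10.6 CPM (3.50, SE 0.25, adjusted p = 2.9e-08), and Lcn2 (lipocalin 2) 0.195, 0.372 and 0.392 CPM and 4.77, 5.73 and 6.57 CPM (4.14, SE 0.31, adjusted p = 6.0e-08). Padi4, which citrullinates histones, rose by 2.27 (SE 0.19). The exceptions were Mmp8, which fell from 43.9, 42.9 and 45.4 CPM to 20.5, 17.02 and 23.5 CPM (-1.11, SE 0.11, adjusted p = 1.5e-06), and the neutrophil growth factor receptor gene Csf3r, at 7.16, 7.73 and 7.76 CPM and 8.42, 9.35 and 6.47 CPM (0.09, SE 0.15, adjusted p = 0.7). Summed over the 9 neutrophil markers in the table the level was 59.03 to 61.5 CPM in Cbl-/- and 112 to 136 CPM in DKO, and over 12 monocyte and progenitor markers 169 to 182 CPM and 231 to 287 CPM. Whether these genes came from all cells or from a few cells of another type was not tested.

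Markers of T, NK and erythroid cells were near the floor, while Ighm of the B cell list and 3 stromal and endothelial markers rose. T cell markers summed to 1.11 to 1.29 CPM and 1.36 to 2.09 CPM, NK cell markers to at most 0.454 CPM and the only erythroid marker in the table to at most 0.056 CPM in the 6 libraries. Cd5 (adjusted p = 0.036) and Lck (adjusted p = 0.021) passed with at most 1.40 CPM, and both calls were lost without Cbl-/- 1, Cbl-/- 2 or DKO 1 (adjusted p = 0.055 to 0.14), that of Cd5 also without DKO 2 (0.12) and in the fit of the compared genotypes alone (0.051). B cell markers summed to 5.12 to 6.86 CPM in Cbl-/- and 14.8 to 16.7 CPM in DKO, nearly all of it from Ighm, which rose by 1.50 (SE 0.12). Cd79b, at 0.943, 0.124 and 0.505 CPM and 0.307, 0.541 and 0.267 CPM, did not pass. Cd79a, at 0.0651, 0.207 and 0.028 CPM and 0, 0.0318 and 0.0243 CPM, was removed as too low, and 5 of the 8 listed B cell markers had no row. Gata2, a factor of mast cells and progenitors, had 0.293, 0.248 and 0.308 CPM and 1.78, 1.88 and 1.38 CPM (2.54, SE 0.42, adjusted p = 2.5e-04). Of 8 stromal and endothelial markers 5 were tested and 3 rose, beside 16% of all genes: the collagen genes Col1a1 and Col1a2, and Pecam1. Col1a1 was at 3.84, 2.52 and 2.24 CPM and 7.94, 6.55 and 5.94 CPM (1.25, SE 0.28, adjusted p = 0.0031). Pecam1 was near the floor, at 0.163, 0.207 and 0.252 CPM and 1.11, 1.59 and 1.31 CPM. The list summed to 4.90 to 8.42 CPM and 12.97 to 16.6 CPM. Of the 3 dendritic and 2 megakaryocyte genes tested 0 passed by edgeR's quasi-likelihood test, also before adjustment apart from Zbtb46 (unadjusted p = 0.019), which passed by limma voom (0.99, adjusted p = 0.026).

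Of 6 Y-linked genes tested 4 rose and 2 fell, beside 16% higher and 13.6% lower of all genes. The 4 that rose make up the listed Y-linked genes with a row, and their summed level was 122 to 125 CPM in Cbl-/- and 171 to 239 CPM in DKO. Eif2s3y, a translation factor gene, had 31.03, 34.5 and 30.7 CPM and 66.02, 60.8 and 87.6 CPM (log2 fold change 1.16, SE 0.11, adjusted p = 1.4e-06), and Kdm5d, a histone demethylase gene, rose by 0.45 (SE 0.07). WT was nearer to DKO, at 57.2, 51.2 and 56.4 CPM for Eif2s3y. The falls, named after their values were seen, were in Gm47283 (-2.99, SE 0.09, adjusted p = 7.8e-13) and the pseudogene Mid1-ps1 (-3.45, SE 0.38, adjusted p = 4.6e-06). Xist, also listed as a check of sex, had no row in the table, so its level in any library is not known. No source used here gives the sex of the animals, and the part of sex in the other differences was not tested.

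Division genes were mostly lower, beside 13.6% lower and 16% higher of all genes. Of 24 mitosis genes tested 1 rose, 16 fell and 7 did not pass (median -0.23; 10 fell in the fit of the compared genotypes alone), and of 28 DNA replication genes 3 rose, 15 fell and 10 did not pass (median -0.21). Mki67, the proliferation marker, had 975, 946 and 908 CPM in Cbl-/- and 680.3, 585 and 732 CPM in DKO (log2 fold change -0.50, SE 0.07, adjusted p = 2.5e-05). Prc1, which bundles the microtubules of the spindle midzone, had 233, 240.1 and 250.1 CPM and 181, 169 and 196 CPM (-0.40, SE 0.06, adjusted p = 5.5e-05). Cdk1, the kinase that starts mitosis, had 145, 148 and 150.2 CPM and 116, 114 and 118 CPM (-0.35, SE 0.05, adjusted p = 6.3e-05). The Cbl-/- libraries were the highest of the 12 for Mki67 and Cdk1, and DKO lay near WT (705, 715 and 711 CPM for Mki67). Top2a (-0.40, SE 0.07), Aurkb (-0.37, SE 0.06), the polymerase gene Pole (-0.36, SE 0.05), Lig1 (-0.33, SE 0.06) and Mcm7 (-0.28, SE 0.05) fell. Tyms, which makes thymidylate, rose from 54.5, 52.5 and 53.2 CPM to 68.9, 64.7 and 71.5 CPM (0.36, SE 0.06, adjusted p = 1.5e-04). DKO 3 was the highest DKO library in 18 of the 24 mitosis genes.

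Ribosomal protein genes rose almost as one, by a little. Of 80 tested 67 rose, beside 16% of all genes, Rpl29 fell and 12 did not pass, with a median of 0.30. Rpsa had 895, 893 and 826 CPM in Cbl-/- and 1160.0, 1268 and 1319 CPM in DKO (log2 fold change 0.52, SE 0.06, adjusted p = 5.3e-06), Rps6, the target of the S6 kinases, 486, 465 and 447 CPM and 612, 629 and 669.9 CPM (0.45, SE 0.07, adjusted p = 8.3e-05), and Rps3 530.0, 537 and 535 CPM and 652, 664 and 678 CPM (0.32, SE 0.05, adjusted p = 7.2e-05). Reads of their processed copies may be included or left out, so single values are uncertain.

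Of 22 glycolysis and hypoxia genes 13 rose, beside 16% of all genes, and 0 fell (median 0.20). With total-count scaling, without Cbl-/- 1 or in the fit of the compared genotypes alone 8 rose. Pfkfb3, which makes the activator of phosphofructokinase, had 25.96, 25.04 and 25.6 CPM and 39.5, 38.8 and 39.2 CPM (log2 fold change 0.62, SE 0.08, adjusted p = 1.9e-05). Vegfa, the vascular growth factor gene, had 8.36, 9.46 and 7.85 CPM and 15.1, 15.6 and 15.2 CPM (0.84, SE 0.12, adjusted p = 5.8e-05), and Ldha and Pgk1 rose by 0.37 and 0.35 (SE 0.05 and 0.05). Among 25 cholesterol and fatty acid synthesis genes 12 rose and 2 fell (median 0.19), beside 16% and 13.6% of all genes. Over the alternatives 0 to 4 fell, but 6 rose with total-count scaling or without Cbl-/- 3 and 7 in the fit of the compared genotypes alone. The stearoyl-CoA desaturase gene Scd2 went from 46.9, 45.9 and 48.9 CPM to 117, 109 and 108 CPM (1.24, SE 0.06, adjusted p = 3.4e-10) and Scd1 from 1.82, 1.90 and 1.65 CPM to 6.995, 6.62 and 5.92 CPM (1.86, SE 0.20, adjusted p = 2.9e-06). Insig1, for a brake on sterol synthesis, rose by 0.31 (SE 0.05).

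Targets of LXR, the nuclear receptor for oxysterols, did not move as 1 group: 7 rose, 4 fell and 8 did not pass of 19 tested and 21 listed (median 0.10), beside 16% higher and 13.6% lower of all genes. Abcg1, a cholesterol exporter gene, rose from 37.2, 34.7 and 36.6 CPM to 106, 104 and 97.9 CPM (log2 fold change 1.50, SE 0.08, adjusted p = 1.2e-09), and Nr1h3, for LXR alpha, by 0.71 (SE 0.08), while Apoe fell (above). Ch25h, which makes the oxysterol 25-hydroxycholesterol and is also known as an interferon-induced gene, fell from 13.5, 15.8 and 18.3 CPM to 3.99, 4.45 and 4.83 CPM (-1.84, SE 0.17, adjusted p = 1.5e-06), below the 23.9, 28.7 and 17.9 CPM of WT. Among the called genes of 2 stress programmes falls outnumbered rises, beside 16% higher and 13.6% lower of all genes. Of 22 NRF2 and glutathione genes 2 rose, 8 fell and 12 did not pass. That list as a whole did not shift down, with a median of 0.03 and 13 genes above 0. Of 24 ATF4 and unfolded protein genes 3 rose, 11 fell and 10 did not pass (median -0.18), and 5 rose with quality weights. Gclc, the rate-limiting enzyme of glutathione synthesis, had 143, 145 and 145 CPM and 83.6, 88.2 and 102 CPM (-0.66, SE 0.07, adjusted p = 2.1e-06), and Nqo1 had 41.1, 43.2 and 43.2 CPM and 27.6, 27.3 and 31.7 CPM (-0.56, SE 0.07, adjusted p = 2.9e-05). Asns, for asparagine synthetase, had 68.96, 65.03 and 62.00 CPM and 42.97, 45.8 and 48.5 CPM (-0.51, SE 0.07, adjusted p = 3.1e-05). The catalase gene Cat (-0.46), Atf4 (-0.30) and Aldh18a1 (-0.34) fell too, while the glutathione peroxidase gene Gpx1 (0.54) and the chaperone gene Calr (0.36) rose.

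Lysosome genes were mostly higher: 18 rose, 7 fell and 9 did not pass of 34 tested (median 0.20), beside 16% higher and 13.6% lower of all genes. The protease gene Ctsz rose from 689, 694 and 671 CPM to 965, 1029 and 879 CPM (log2 fold change 0.48, SE 0.06, adjusted p = 9.3e-06), whereas Ctsh fell from 126, 116 and 116 CPM to 76.2, 75.9 and 71.7 CPM (-0.68, SE 0.06, adjusted p = 1.3e-07), Lgmn by 0.46 (SE 0.05) on the log2 scale and the calcium channel gene Mcoln3 from 17.7, 14.8 and 13.8 CPM to 5.02, 4.01 and 4.73 CPM (-1.75, SE 0.11, adjusted p = 1.0e-08). Genes linked to osteoclasts, which also form from CSF-1-dependent precursors, held 4 rises and 1 fall among 10 tested of 13 listed, beside the same shares of all genes. Ctsk, the collagen-degrading protease, had 3.06, 4.21 and 3.78 CPM and 8.500, 8.30 and 8.87 CPM (1.22, SE 0.15, adjusted p = 2.0e-05), the proton pump subunit gene Atp6v0d2 12.6, 12.1 and 11.6 CPM and 21.8, 22.2 and 26.2 CPM (0.95, SE 0.12, adjusted p = 1.7e-05), and Acp5 (TRAP) 1.53, 2.44 and 1.88 CPM and 5.46, 3.79 and 3.47 CPM (1.13, SE 0.26, adjusted p = 0.0036). A filter of 5 CPM left 2 of the 4 risen genes under test. The call of 1 fall was 3 with total-count scaling and 2 without DKO 2 or with quality weights.

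Among 21 tested of 22 listed genes of matrix proteases, integrins and adhesion, 9 rose, 5 fell and 7 did not pass (median 0.15), beside 16% higher and 13.6% lower of all genes. Spp1 (osteopontin), a secreted adhesion protein, rose from 2535, 2415 and 2409 CPM to 6243, 6684 and 8504 CPM (log2 fold change 1.54, SE 0.11, adjusted p = 8.7e-08), with DKO 3 the highest. The integrin genes Itga8, from 14.9, 15.7 and 18.1 CPM to 4.24, 3.53 and 4.001 CPM (-2.04, SE 0.14, adjusted p = 2.4e-08), and Itgb5, from 419.6, 427 and 441 CPM to 249, 254 and 219 CPM (-0.83, SE 0.08, adjusted p = 6.5e-07), fell, as did Itga6 (-0.61, SE 0.05). Mmp9 had 0.358, 0.0413 and 0.168 CPM and 1.34, 1.40 and 0.873 CPM (2.59, SE 0.49, adjusted p = 8.1e-04).

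**Figure D4:**
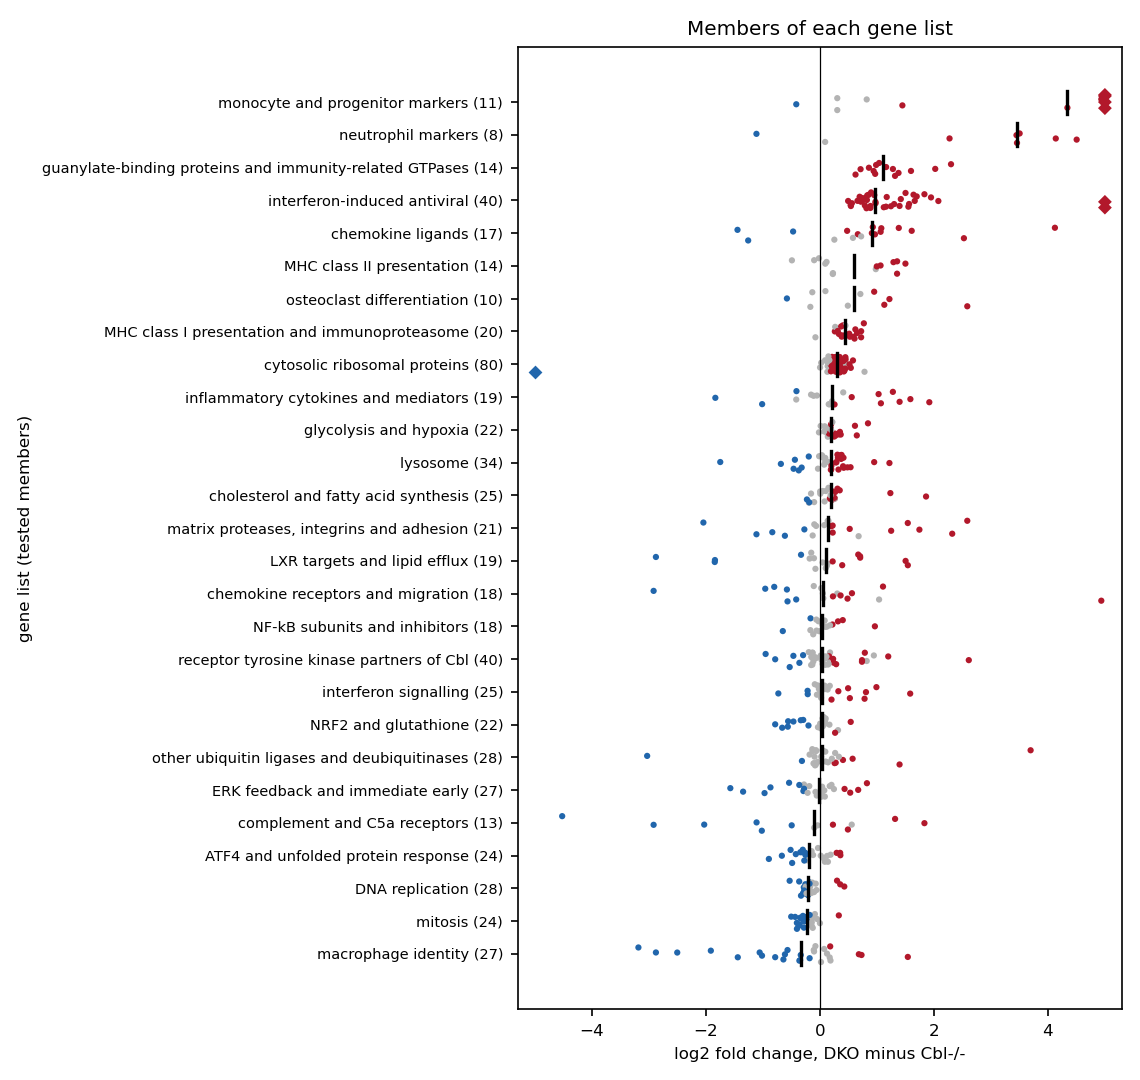
Log2 fold change of DKO over Cbl-/- for the tested members of the 27 gene lists with at least 8 tested members, 1 point for each gene, with called genes coloured by direction, the median as a bar and values beyond 5 drawn as diamonds at the edge. The 40 antiviral genes lie to the right of 0, the ribosomal list is shifted by a median of 0.30 with Rpl29 alone far to the left, and the macrophage identity list is shifted to the left (-0.34).

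The addition of the Cbl-b label could be compared where Cbl was missing and where it was present, since Cbl-b-/- against WT shares no library with DKO against Cbl-/-. Where Cbl was present 62 genes passed (0.489%), 50 higher (0.395%) and 12 lower (0.0947%) in Cbl-b-/-. The difference between both comparisons, tested as an interaction in the same fit, passed for 1985 genes (15.7%), 1063 above (8.39%) and 922 below 0 (7.28%). Of the 3747 genes called in DKO against Cbl-/-, 1866 (49.8%) also passed this test, and for the rest a different size of change with and without Cbl was not shown. Without Cbl-b-/- 3 the interaction passed for 1605 genes. The 62 calls depended on single libraries and on the test, with 35 without Cbl-b-/- 2, 37 without WT 1, 41 without Cbl-b-/- 3, 144 without DKO 3 and 145 by DESeq2.

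Of these 62 genes 42 were also called in DKO against Cbl-/-, which is 67.7% of the shorter and 1.12% of the longer list. Of all genes tested 29.6% were called in DKO against Cbl-/-. In 27 of the 42 the direction was the same, and in 15 opposite. Acod1 was among those higher in both, by 1.47 (SE 0.16, adjusted p = 2.3e-04) in Cbl-b-/- over WT and by 1.59 in DKO over Cbl-/-, with an interaction of 0.12 (adjusted p = 0.74) that did not pass. Vcan was higher in both (0.71 and 1.45) and its interaction passed (0.74, adjusted p = 0.0015). Cxcl14 (-0.45 and -1.44) and Rpl29 (-0.71 and -5.90) were lower in both. C5ar1 and C5ar2 turned around: Cbl-b-/- libraries had 496, 525 and 529 CPM of C5ar1 against 252, 297 and 207 in WT (1.03, SE 0.11), and 15.3, 15.5 and 18.1 CPM of C5ar2 against 2.69, 2.59 and 2.93 (2.57, SE 0.12), while DKO was far below Cbl-/- for both. The interactions were -3.95 (SE 0.16, adjusted p = 7.1e-10) and -7.09 (SE 0.19, adjusted p = 3.1e-13). Ifi44, at 20.3, 20.4 and 17.1 CPM in Cbl-b-/- (-0.99 against WT), Ifi44l (-0.95), Cd74 (-0.32) and Col1a1 (-2.30) turned the other way, lower in Cbl-b-/- and higher in DKO.

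The antiviral list differed between both comparisons: the interaction passed above 0 in 39 of its 40 genes (37 without Cbl-b-/- 3), beside 8.39% of all genes, and the median of Cbl-b-/- over WT was 0.02. For Isg15 the Cbl-b-/- libraries had 10.5, 11.9 and 7.49 CPM and WT 7.57, 8.16 and 12.7 CPM, and for Slfn5 74.9, 62.1 and 61.9 CPM and 61.9, 56.7 and 74.1 CPM. The interaction was 1.59 (adjusted p = 0.0038) for Isg15 and 1.37 (adjusted p = 1.2e-05) for Slfn5. Csf1 (2.41, adjusted p = 1.9e-05), Apoe (-2.66, adjusted p = 3.7e-11) and S100a9 (4.21, adjusted p = 1.3e-06) passed as well, whereas Fgr (0.31, adjusted p = 0.13), Traf1 (0.51, adjusted p = 0.14) and Ly6c2 (2.63, adjusted p = 0.06) did not. Fgr did without Cbl-b-/- 2 (0.41, adjusted p = 0.045), Traf1 with quality weights (0.48, adjusted p = 0.036) and Ly6c2 without Cbl-/- 2 or WT 3 (3.59 and 3.07, adjusted p = 0.011 and 0.024), by DESeq2 (2.58, adjusted p = 0.0030) and with quality weights (3.03, adjusted p = 0.020).

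**Figure D5:**
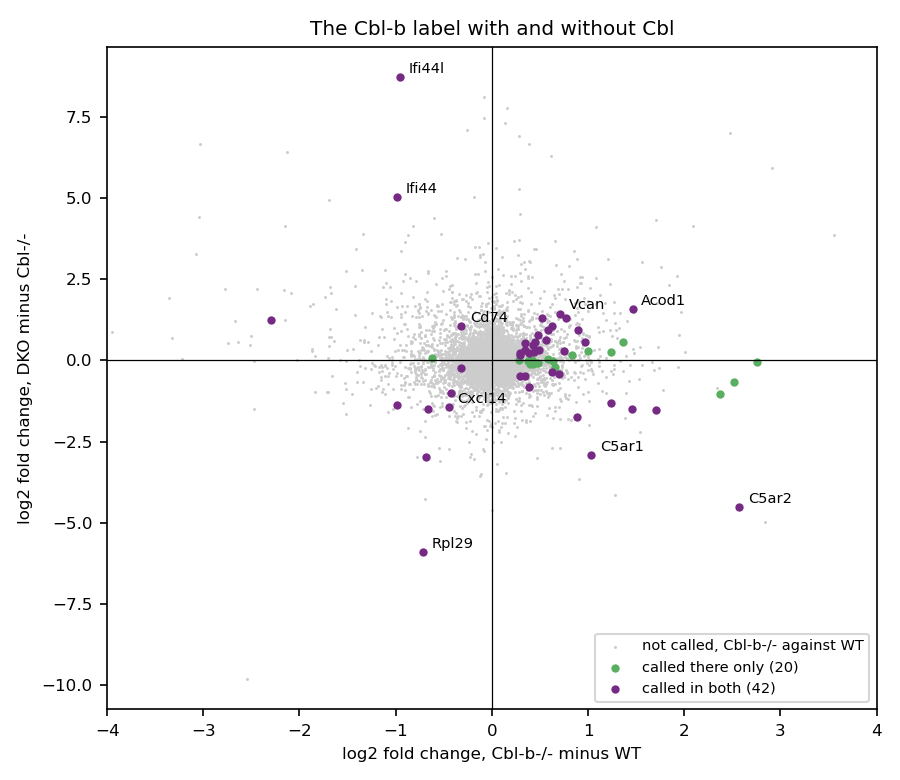
Log2 fold change of DKO over Cbl-/- (vertical axis) against that of Cbl-b-/- over WT (horizontal axis, drawn from -4 to 4 with 9 genes outside), 1 point for each gene, with the 62 genes called in Cbl-b-/- against WT coloured, the 42 also called in DKO against Cbl-/- in purple and the other 20 in green. The cloud is tall and narrow, and C5ar1 and C5ar2 lie at the lower right while Ifi44 and Ifi44l lie at the upper left.

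Between 25.6% and 35.5% of tested genes were called on each autosome and the X chromosome, 6 of 6 on the Y chromosome (3 at least 2-fold) and 5 of 13 (38.5%) in the mitochondrial genome. Within 10 Mb of Cblb on chromosome 16, 19 of 52 tested genes (36.5%) were called, against 38.5% at 10 to 30 Mb and 25.8% on the rest of that chromosome, and at least 2-fold changes made up 9.62%, 7.69% and 4.07%. Within 10 Mb of Cbl on chromosome 9, where both groups carry the knockout label, 48 of 119 (40.3%) were called, against 30% and 33.2% farther away, with 10.9%, 3.6% and 8.76% at least 2-fold. No test was run on these shares.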

How the data were processed

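The authors deposited read counts per gene as whole numbers with no normalization, from libraries of mRNA; per the labels' protocols the kit was TruSeq Stranded. The genome build was GRCm38.p5, per the submitters' processing notes. Not given in the sources used here are the aligner, the counting program, its use of strand and its treatment of reads with several matches. Each gene in the table had at least 1 count in WT 1, so genes silent there were not analysed here. Symbols and positions came from GENCODE M21 (GRCm38), which matched 15506 of 15555 identifiers.

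A single edgeR 4.0.16 model in R 4.3.3 covered the 12 libraries: filterByExpr by genotype (12671 genes kept), TMM factors, 1 mean for each genotype and a robust quasi-likelihood F test, with p-values adjusted by Benjamini-Hochberg over all genes tested, a threshold of 0.05 and no minimum fold. The interaction was the contrast of DKO minus Cbl-/- against Cbl-b-/- minus WT. Lists were described by counts and medians with no set test, and the script was tested on simulated data. The members and lists were chosen with earlier results of these data known. Genes named were Cbl and Cblb, the 12 largest called changes each way with a mean log2 CPM of at least 1, a gene symbol that is not a model name and no overlap between groups, the 5 largest interactions each way, up to 4 members of each list by smallest adjusted p, all members of the cell type lists, and a short set fixed by name. Others are said to be chosen after their values were seen. A few genes chosen this way are left out of the text.

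The replicate numbers carry no stated pairing, and deviations of same-numbered Cbl-/- and DKO libraries correlated at 0.015, 0.047 and 0.013, so no block was used. Alternatives were DESeq2 1.42.0 size factors or total counts, no filter or 5 CPM in 3 libraries, DESeq2, limma 3.58.1 voom, the replicate block, the compared genotypes alone and each library left out. Voom with sample quality weights was added after seeing the data.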

Additional observations from a re-analysis of the deposited data

Results flagged for a closer look

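The difference between DKO against Cbl-/- and Cbl-b-/- against WT, tested as an interaction with edgeR's quasi-likelihood test, passed for 1985 genes. Among the genes named by size, those with the largest differences above 0 were Ifi44l (9.69 on the log2 scale, SE 0.35), Hmga1b (7.38, SE 0.33), Ifi44 (6.01, SE 0.25), Stard13 (5.24, SE 0.23) and Plbd1 (4.44, SE 0.26). Below 0 they were C5ar2 (-7.09, SE 0.19), Rpl29 (-5.18, SE 0.15), C5ar1 (-3.95, SE 0.16), Slco2b1 (-3.43, SE 0.30) and Fam162a (-3.39, SE 0.27). In C5ar1, C5ar2, Ifi44 and Ifi44l both comparisons passed on their own with opposite signs. For Hmga1b, Stard13, Plbd1, Slco2b1 and Fam162a the Cbl-b-/- against WT comparison did not pass (log2 fold changes -0.26, -0.19, -0.53, -0.13 and -0.11).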

How the results depend on the processing

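Over the alternatives run, 170 of 184 gene results kept their direction and their side of the threshold, 14 changed side and 0 reversed. The 3747 genes called in DKO against Cbl-/- ranged from 2855 to 4332 with each library left out, the 2027 higher genes from 1529 to 2285 and the 1720 lower genes from 1301 to 2047. Total-count scaling gave 2747 lower and 1362 higher genes and, for the interaction, shifted the median of all genes to -0.11. The 1985 interactions ranged from 1448 to 2780 with each library left out and came to 3317 by limma voom with sample quality weights, added after seeing the data. The 62 genes of Cbl-b-/- against WT ranged from 35 to 144, and came to 145 by DESeq2 and 244 with quality weights, the cause of which was not tested. Cbl-/- and DKO libraries of the same number shared only a number: with the replicate block 3577 genes passed in DKO against Cbl-/-, 1815 in the interaction and 60 in Cbl-b-/- against WT. Genes below about 1 CPM, such as the T cell markers, are limited by depth, and the calls of Cd4, Cd5 and Lck each changed side under at least 1 alternative. Unequal spread between genotypes limits the shared estimate.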

Other observations

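Some changed genes lay side by side, and all genes of this paragraph and the next that were not named above were chosen after their values were seen. Around Rpl29 on chromosome 9, 4 of 21 tested genes within 0.5 Mb fell at least 2-fold, beside 1.63% of all genes. In this window 11 genes were called, beside 29.6% of all genes. It was centred on Rpl29, which is 1 of the 4. The 4 follow each other: Rpl29, Abhd14a (-1.72, SE 0.22), Abhd14b (-1.50, SE 0.11) and Pcbp4 (-2.18, SE 0.19), with only Acy1 (0.17, adjusted p = 0.64) between the first and the second. Rpl29 and Abhd14b were lower in Cbl-b-/- than in WT as well (-0.71 and -0.66, adjusted p = 6.6e-04 and 0.0041). Abhd14b had 12.3, 12.6 and 14.7 CPM in Cbl-/- and 4.40, 4.61 and 4.99 CPM in DKO. On chromosome 7 the neighbours Dmwd (-1.71, SE 0.09), Dmpk (-2.09, SE 0.11) and Six5 (-1.59, SE 0.35) fell together. Of the other 25 tested genes within 0.5 Mb of Dmpk 3 were called, beside 29.6% of all genes, and none of these reached 2-fold. Dmpk, the myotonic dystrophy kinase gene, had 115, 119.7 and 135 CPM and 30.5, 33.1 and 23.2 CPM. Next to Ifi44 and Ifi44l on chromosome 3, Adgrl4, an adhesion receptor gene, rose by 3.64 (SE 0.59).

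Basement membrane collagen genes fell, with Col4a1 at 80.05, 77.1 and 81.5 CPM in Cbl-/- and 23.7, 21.8 and 20.97 CPM in DKO (log2 fold change -1.85, SE 0.12, adjusted p = 1.7e-08) and its neighbour Col4a2 at 135, 141 and 143 CPM and 38.8, 32.4 and 29.8 CPM (-2.05, SE 0.11, adjusted p = 2.8e-09). The fibrillar collagen genes Col1a1 and Col1a2 rose, as given above for the first and by 1.41 (SE 0.29) for the second. In the Bcl2a1 family of near-identical genes, Bcl2a1d rose and Bcl2a1b fell by 1.59 (SE 0.14) on the log2 scale, and reads may be split between them. Of the 13 genes of the mitochondrial genome tested 5 were called, all 5 lower, beside 29.6% called and 13.6% lower of all genes.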
